A study of Mus musculus with 6 samples.

Results

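LINE-1 elements, or L1, are retrotransposons that copy themselves through RNA, and the mouse genome holds a great many copies, most of them truncated and long unable to move. The copies described here are those of the L1 family whose element name does not begin with L1Md_, the prefix of the L1 elements that still include mobile members. By that rule, which uses names alone, 2670 of the 26255 single copies of transposable elements (TEs) in the copy table were taken, from 106 elements, together with 121 of the 938 entries of the subfamily table, in which reads are summed over all copies of an element. The names fall into groups that are known to differ in age. L1_Mus elements belong to the mouse genus, L1_Mur and Lx elements to the wider group of murine rodents, and L1M elements to mammals in general. There were 381 L1_Mus copies of 4 elements, 120 L1_Mur copies of 3, 1163 Lx copies of 21 and 871 L1M copies of 70. The remaining 135 copies carry other names, namely L1VL (73), HAL1 (26), L1_Rod (18) and L1_Mm (18). The names are the only evidence of age in the tables, and L1_Mm, named after the house mouse, may not be old.

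The study set 3 samples of mouse E14 embryonic stem cells with the genotype Dot1L-/-, made with CRISPR/Cas9, against 3 samples of the same cells with the genotype wild type (WT), and sequenced libraries from total RNA. E14 is a male line of embryonic stem cells; all cells were grown on gelatin in serum with the cytokine LIF, and all are labelled day 14, with no statement of what the days count from. Whether the knock-out (KO) samples come from 1 clone or several, and whether replicates are separate cultures, is not stated in the labels, so the p-values reflect only how far these samples differ, which may be technical variation. Dot1l is the enzyme that methylates lysine 79 of histone H3 along transcribed genes, and the question asked of the L1 copies is whether their RNA level differs between the genotypes.

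Old L1 copies can seldom transcribe themselves. Most lack the promoter at the 5′ end, so RNA from them often comes as part of a longer transcript, from an intron, an untranslated region or a long non-coding RNA that happens to contain the copy. Full-length L1 elements are held down in embryonic stem cells by DNA methylation and by H3K9 methylation through Setdb1, Trim28 and the HUSH complex, and in germ cells by the piRNA pathway.

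All values start from the authors' comparison, which gives for each entry a normalized count averaged over the libraries, the log2 fold change, the standard error (SE) of that change and a Wald p-value of DESeq2. Values per sample were not analysed here, so library depths are unknown and no statement can be made on which samples were high or low or whether the groups overlapped. The tables do not say in which genotype an entry with a positive value is higher. Positive values were taken to mean a higher level in the knock-out, since Dot1l is reported in the literature to repress the retrovirus MERVL in such cells. With the opposite sign, each direction below would turn around. A copy or subfamily is said to have risen or fallen where its p-value, adjusted by Benjamini-Hochberg over its whole table, was under 0.05. Group levels are those implied by the mean and the fold change for groups of equal size. They are not divided by the length of a copy, so they are compared between genotypes and not between copies as measures of expression. The copies carry a number in place of a position, so their sequences and the genes around them were not used here.

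Markers of stem cells were abundant, as the label implies. All 10 of the list were measured, with means from 5956 to 50682 normalized counts, and 0 of them rose or fell. Dot1l itself (chromosome 10, 80755206 to 80795461 in mm10) had -0.16 ± 0.25 (SE) in the authors' deposited table, with a DESeq2 adjusted p = 0.845, so its RNA does not tell the genotypes apart. Markers of other cells moved with the genotype: 4 of 6 tested fibroblast markers rose, with an implied summed level of 1096 in WT and 2289 in Dot1l KO, 5 of 7 primitive endoderm markers rose (312 and 1044), and 8 of 12 markers of the 2-cell-like state rose (49.7 and 2532), while 0 fell in each list. Over all genes, 6.58% passed (5.34% higher and 1.25% lower). The part of these markers in the results on L1 copies was not tested.

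Few older L1 copies changed. Of the 2664 copies with a p-value, 5 rose and 5 fell, which is 0.375%, where 1.11% of all copies in the table passed (0.878% higher and 0.229% lower). The members that rose made up 0.188% of the copies tested, and those that fell the same share. Without adjustment, 49 were higher and 37 lower at p under 0.05, together 3.23%, beside 4.7% of all copies (2.88% higher and 1.82% lower). The precision was low. With the median SE of 1.09 on the log2 scale, a copy needed a change of 3.78, or 13.7-fold, to reach the Wald statistic of 3.46 at which calls began. Even at the smallest SE of a member, 0.61, the change needed was 4.30-fold, so moderate changes of single copies could not be called with these errors.

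**Figure D1:**
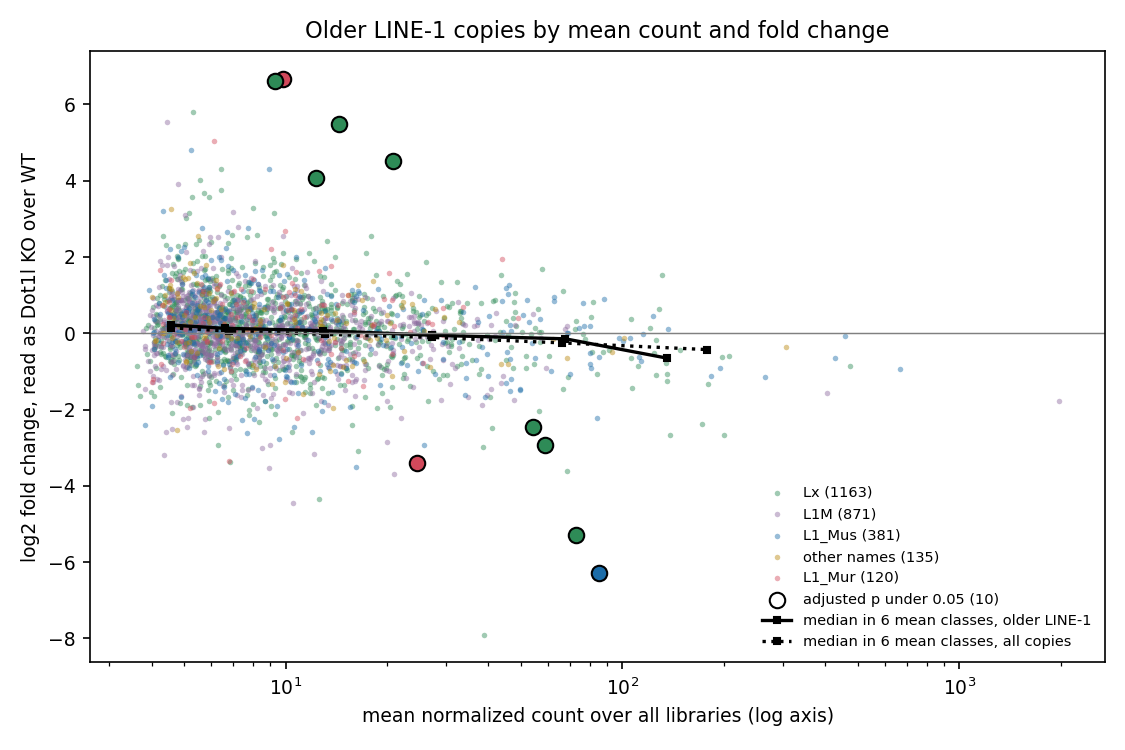
Each point is 1 older L1 copy, with its mean normalized count on a log axis against its log2 fold change, coloured by name group; circled points are the 10 copies past the threshold. The 5 rises sit at means from 9.33 to 20.9 and the 5 falls at means from 24.5 to 85.0, and the line of medians goes from above 0 on the left to below 0 on the right.

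Rises and falls lay at different means, and they did so over the whole table too. There, 14 of 230 rises and 30 of 60 falls had a mean of at least 50. The 5 older L1 copies that rose had means from 9.33 to 20.9. They were all but silent in WT, with implied WT levels from 0.19 to 1.74 against 18.5 to 40.0 in Dot1l KO. The 5 that fell had means from 24.5 to 85.0 and implied levels from 44.8 to 168 in WT against 2.16 to 16.5 in Dot1l KO. At the median SE a call needed a 13.7-fold change, and at the smallest SE of a member 4.30-fold. Lx4A_dup10049 and Lx7_dup29483, with SEs of 0.82 and 0.71, passed with falls of 7.57-fold and 5.54-fold. Calls were thus limited to large ratios between the genotypes, and how far this accounts for the low level in 1 of them was not tested.

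Among the rises, Lx5_dup8432 had the smallest p-value. Its implied level was 1.74 in WT and 40.0 in Dot1l KO, and the authors' deposited table gives 4.52 ± 0.99 with a DESeq2 adjusted p = 0.00137. For Lx3_Mus_dup3995 the implied level was 0.63 in WT and 28.3 in Dot1l KO (5.49 ± 1.33 in the authors' deposited table). Lx8_dup2593 went from 1.40 to 23.3, with 4.06 ± 1.12 and an adjusted p = 0.0308 from DESeq2 in the authors' deposited table. In the remaining pair, Lx9_dup28737 and L1_Mur1_dup6257, the implied WT level of 0.19 lay at the step of the table that was taken as no reads. With WT set to a floor of 3 reads in its group, taken as 1 normalized count per library, Lx9_dup28737 was at least 18.5-fold higher in Dot1l KO and L1_Mur1_dup6257 at least 19.4-fold higher, with DESeq2 adjusted p-values of 0.00416 and 0.00684 in the authors' deposited table. The bounds leave out the error of the KO level. Lx3_Mus_dup3995, with 0.63 in WT, also lay under this floor. It was not taken as having no reads, so no bound was set for it.

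The deepest fall was that of L1_Mus4_dup4514, the only L1_Mus copy past the threshold. Its implied level went from 168 in WT to 2.16 in Dot1l KO, and the authors' deposited table gives -6.28 ± 1.29 with a DESeq2 adjusted p = 0.000594. This copy holds 20.4% of the mean counts of the 30 listed L1_Mus4 copies. Lx8b_dup19242 went from 142 to 3.65 (-5.28 ± 1.13, DESeq2 adjusted p = 0.00106 in the authors' deposited table). L1_Mur2_dup19726 went from 44.8 to 4.21 (-3.41 ± 0.83, DESeq2 adjusted p = 0.00688 in the authors' deposited table). Smaller falls were those of Lx4A_dup10049, from 104 to 13.8, and Lx7_dup29483, from 91.7 to 16.5. With adjusted p-values of 0.0382 and 0.0484 from DESeq2 in the authors' deposited table, this pair stood closest to the threshold, and both were lost when fold changes were centred within 20 bins of mean count. Just outside the threshold stood Lx6_dup3829, with 347 in WT and 54.4 in Dot1l KO, -2.67 ± 0.81 and a DESeq2 adjusted p = 0.0776 in the authors' deposited table.

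**Figure D2:**
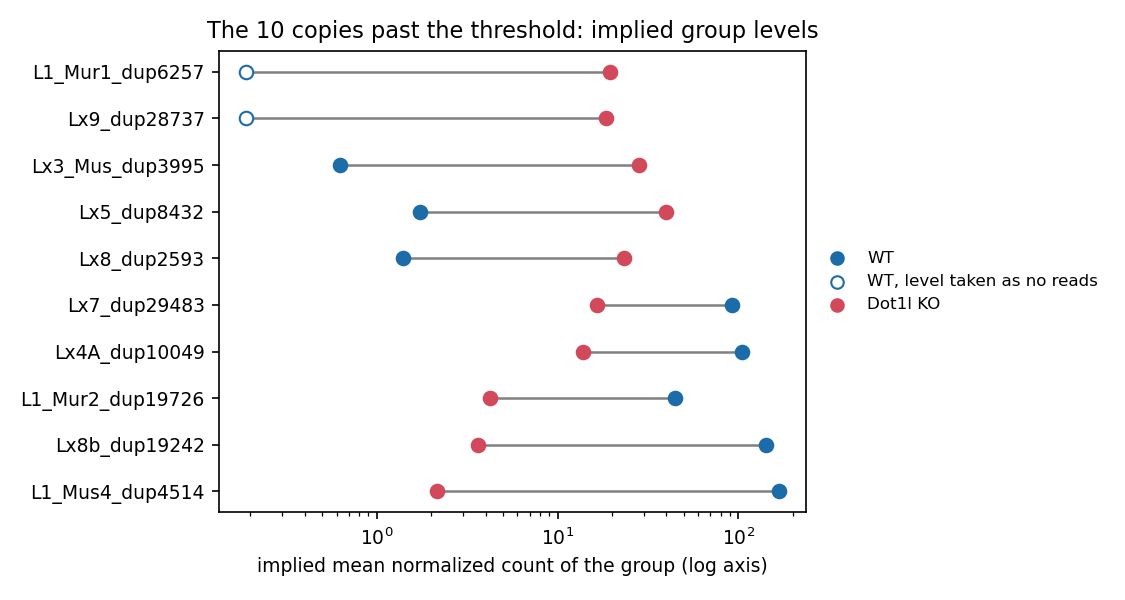
Implied mean normalized counts of the WT group (blue) and the Dot1l KO group (red) on a log axis for the 10 older L1 copies past the threshold; an open circle marks a WT level taken as no reads. The 5 upper copies have WT levels from 0.19 to 1.74, and the 5 lower ones have Dot1l KO levels from 2.16 to 16.5.

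By name group, the calls lay among Lx, L1_Mur and L1_Mus copies. Lx copies had 4 rises and 3 falls among 1160 tested (0.603%), L1_Mur copies 1 rise and 1 fall among 120 (1.67%), and L1_Mus copies 0 rises and 1 fall among 380 (0.263%). Among 869 tested L1M copies, the oldest names, 0 rose or fell by DESeq2, with 6 higher and 12 lower without adjustment. The L1M copies with the smallest p-values were L1MEc_dup5000, from 38.9 in WT to 3.04 in Dot1l KO, and L1M4_dup11390, from 0.59 to 8.98, with adjusted p-values of 0.335 and 0.356 from DESeq2 in the authors' deposited table. Of the 135 copies with other names 0 passed, with 2 higher and 0 lower without adjustment: MusHAL1_dup3145 (3.27 ± 1.38) and L1VL2_dup2531 (2.56 ± 1.24) in the authors' deposited table. The second L1_Mus copy by p-value, L1_Mus1_dup12305, had 4.30 ± 1.47 with a DESeq2 adjusted p = 0.198 in the authors' deposited table. Whether these shares differ between the groups was not tested.

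The median log2 fold change of the 2670 copies was 0.10, beside 0.02 over all copies of the table, and 1465 of them (54.9%) were positive, beside 50.9% of all copies. Over the groups the median was 0.03 for L1_Mus, 0.22 for L1_Mur, 0.12 for Lx and 0.04 for L1M. Of the smaller groups, L1_Rod had 0.39, L1VL 0.30, HAL1 0.23 and L1_Mm -0.28. The quartiles of the older L1 copies together were -0.46 and 0.61. For comparison, the 1032 L1Md_ copies had a median of 0.32 with 5 rises and 3 falls (0.780% of those tested), and the 520 copies of L2, a still older LINE family, had 0.01 with 0 rises and 0 falls by DESeq2 (5 higher and 2 lower without adjustment). The standard deviation of the Wald statistics over copies was 0.75 for L1M, 0.90 for Lx, 0.95 for L1_Mus and 1.03 for L1_Mur. It was 1.09 for L1Md_ copies, 0.72 for L2 copies and 0.98 for the whole table.

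**Figure D3:**
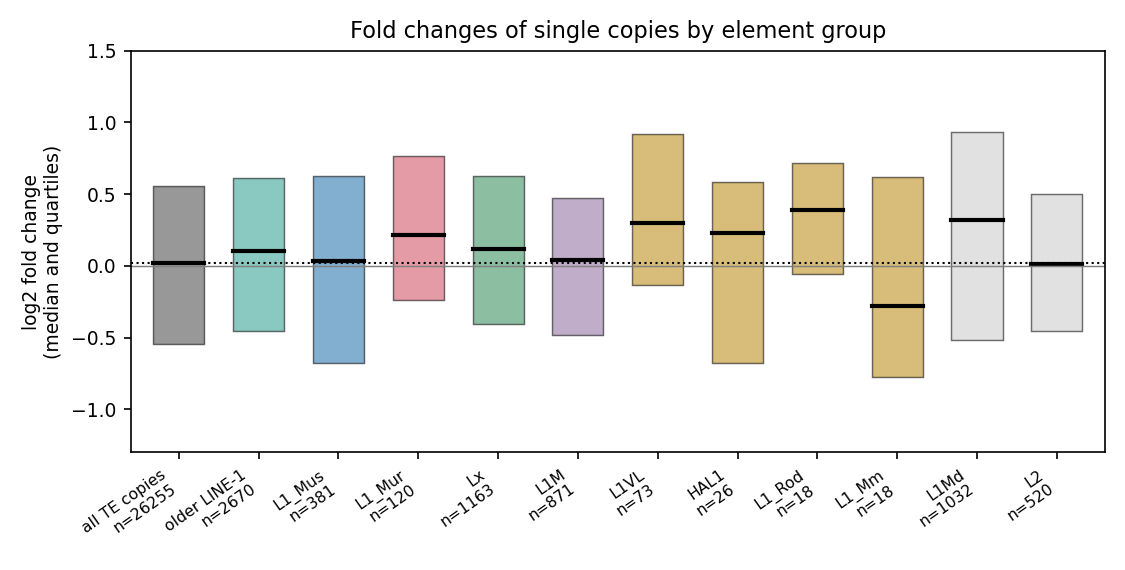
Median (line) and quartiles (box) of the log2 fold change over single copies, for all TE copies, the older L1 copies together, each of their name groups, and L1Md_ and L2 copies; the dotted line is the median of all copies, 0.02. The group medians run from -0.28 for L1_Mm to 0.39 for L1_Rod, and the quartiles of every group shown span 0.

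The fold change moved with the mean count. Among the 372 older L1 copies with a mean under 5 the median was 0.22 and 61.8% were positive; it was 0.13 at means from 5 to 10, 0.07 from 10 to 20, -0.05 from 20 to 50 and -0.15 from 50 to 100. At a mean of at least 100 it was -0.65, and 32 of 38 copies (84.2%) were negative. The whole table also went down with the mean, from a median of 0.14 under 5 to -0.43 at 100 or more, where 67.5% of 428 copies were negative; whether the older L1 copies differ from it in this was not tested. Of the 38 copies, 21 are Lx, 13 L1_Mus, 2 L1M and 2 have other names. None of them passed the test of DESeq2; without adjustment 2 were lower and 1 higher, and 4 have no p-value. Among copies with a mean of at least 50, 4 of 96 tested (4.17%) passed, beside 4.45% of all copies at that mean.

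The copies with the most reads that have a p-value had values below 0 that lay close to their error or within it. For L1_Mus1_dup17730 the implied level was 879 in WT and 456 in Dot1l KO (-0.95 ± 0.81 in the authors' deposited table). Lx_dup18332 had 613 and 337 (-0.86 ± 0.85 in the authors' deposited table). L1_Mus3_dup5840 was level, with 469 and 444 (-0.08 ± 0.71 in the authors' deposited table). Of the copies with a mean above 50, the largest positive values belonged to Lx8_dup42972, with 27.5 in WT and 87.6 in Dot1l KO, and Lx8_dup42973, with 68.0 and 195. Their fold changes of 1.67 ± 0.67 and 1.52 ± 0.67 in the authors' deposited table had DESeq2 adjusted p-values of 0.478 and 0.724.

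Summed over copies, no older L1 subfamily rose or fell. Of the 120 subfamilies with a p-value 0 passed the test of DESeq2, where 0.748% of the whole subfamily table did (0.641% higher and 0.107% lower). Without adjustment 1 was higher and 3 were lower, together 3.33%, beside 5.24% of all subfamilies (1.92% higher and 3.31% lower). Over the members the median log2 fold change was -0.04, beside -0.05 over the table. Precision was far better than for single copies, with a median SE of 0.28. For 86 of the 121 subfamilies (71.1%) the 95% interval lay wholly between -1 and 1, so that a doubling or a halving lies outside it. Over the whole subfamily table this held for 52.5% of entries. At a mean of at least 50 it held for 85.3% of older L1 entries and 73.4% of all.

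The most abundant entry was Lx8, summed over its copies to an implied 6757 normalized counts in WT and 6703 in Dot1l KO. Its 95% interval ran from -0.33 to 0.31. Lx9 had 3300 in WT and 3350 in Dot1l KO, with an interval from -0.32 to 0.37. The smallest p-value among Lx names was that of Lx3A, with 350 and 457 (0.39 ± 0.22 in the authors' deposited table). In all, 17 of the 21 Lx subfamilies had intervals inside a doubling or a halving.

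The L1_Mus subfamilies were all at or below 0, but with wider intervals. L1_Mus1 had an implied 6931 in WT and 5202 in Dot1l KO, with an interval from -1.23 to 0.40. For L1_Mus2 the levels were 2370 and 1900, with an interval from -1.22 to 0.58, and for L1_Mus4 1061 and 812, from -1.16 to 0.39. The L1_Mus4 sum includes L1_Mus4_dup4514, with an implied 168 in WT and 2.16 in Dot1l KO among the copies, which were normalized separately. L1_Mus3 was level, at 4865 and 4836, and is the only one of the 4 whose interval, -0.42 to 0.40, lay inside a doubling or a halving. L1_Mm, with 1308 and 1067, had an interval from -1.02 to 0.43. The L1_Mur values lay near 0 or above it: L1_Mur1 had 424 in WT and 575 in Dot1l KO (0.44 ± 0.26 in the authors' deposited table), L1_Mur2 had 1083 and 1081, and L1_Mur3 had 1772 and 1885. None of these differences passed the test of DESeq2, each with an adjusted p = 0.996 from the authors' deposited table.

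**Figure D4:**
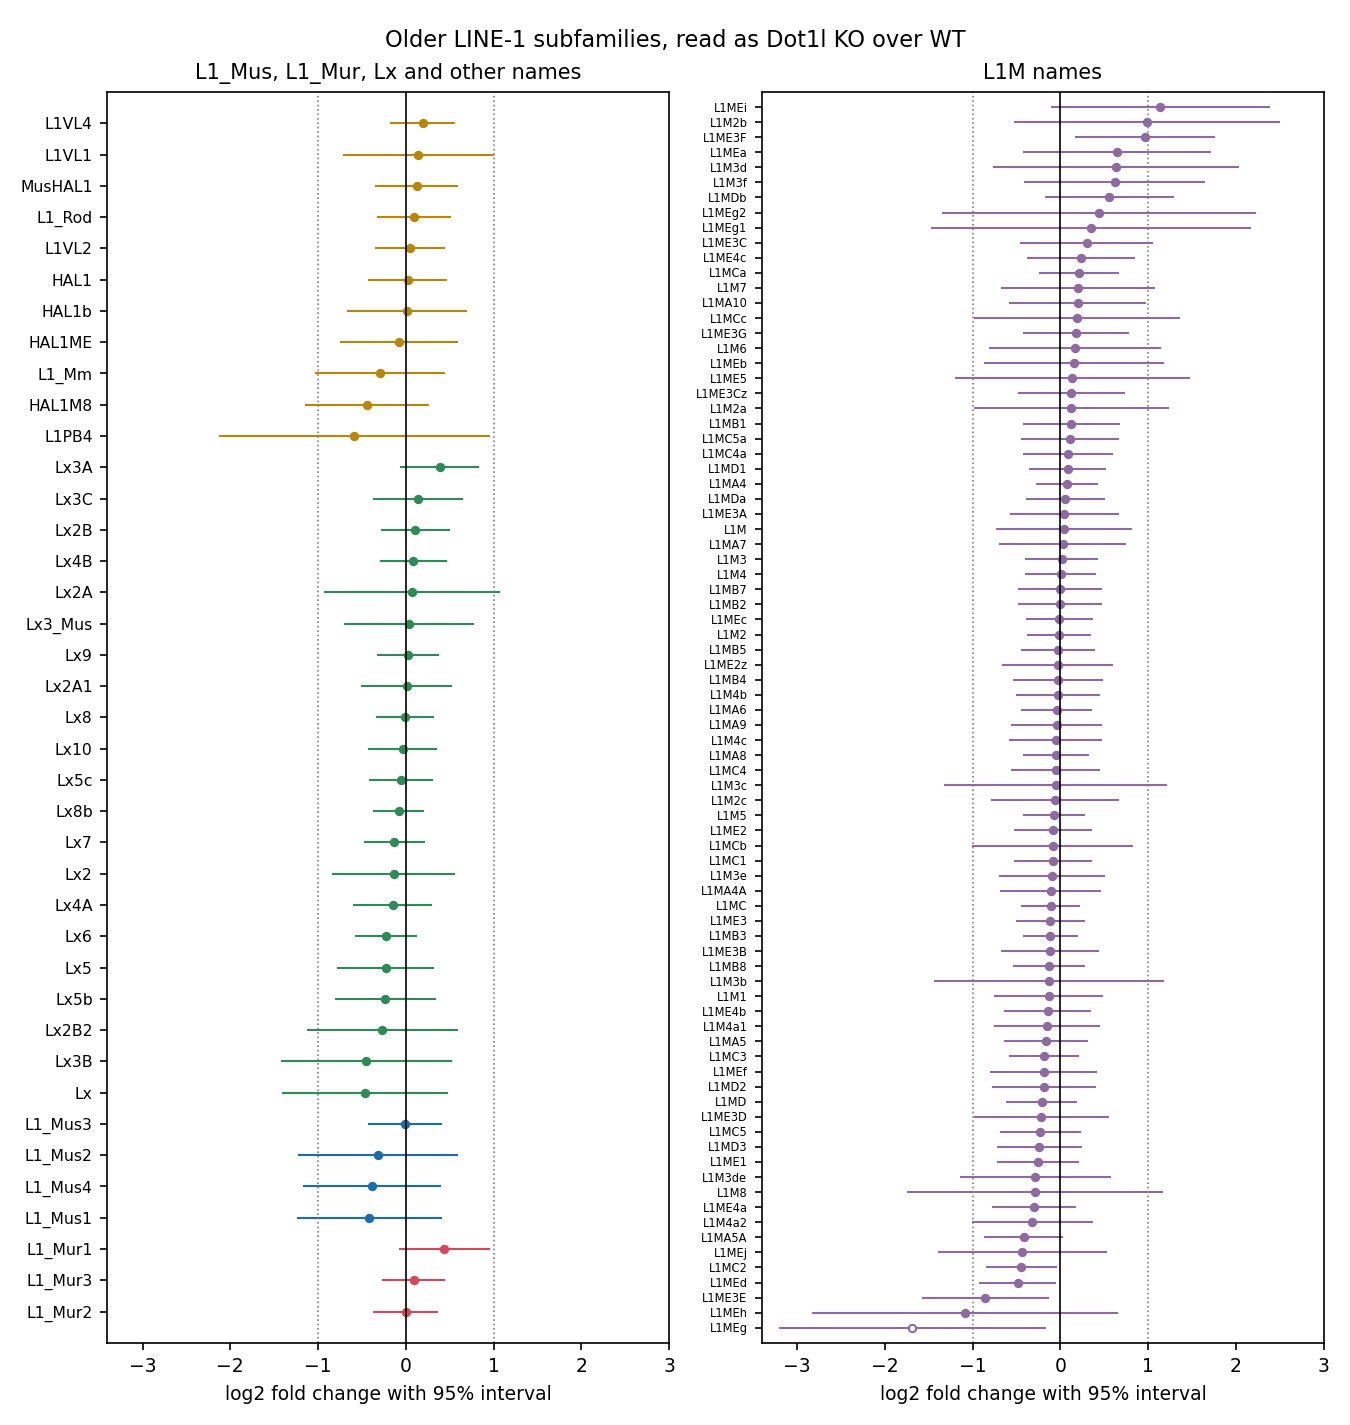
Log2 fold change (point) and 95% interval (line) of each of the 121 older L1 subfamilies, L1M names on the right and the others on the left; dotted lines mark -1 and 1, and the open point, L1MEg, has no p-value. 86 intervals lie wholly between the dotted lines, and 0 of the 120 tested subfamilies passed the test of DESeq2.

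Of the 82 L1M subfamilies 57 had intervals inside those limits. The lowest p-value belonged to L1ME3F, a scarce element with an implied 15.1 in WT and 29.4 in Dot1l KO, at 0.96 ± 0.40 with p = 0.0167 and an adjusted p = 0.557 from DESeq2 in the authors' deposited table. The 3 that were lower without adjustment were L1ME3E (79.5 in WT and 43.8 in Dot1l KO), L1MEd (392 and 280) and L1MC2 (282 and 207), with adjusted p-values from 0.597 to 0.649 from DESeq2 in the authors' deposited table. L1M4, one of the larger entries, was level at 1929 and 1933. HAL1M8, the lowest p-value among the other names, had 86.7 and 63.8, with an interval from -1.13 to 0.25.

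L1MEg stood apart from the other L1M elements. Its subfamily entry had an implied 4385 in WT and 1362 in Dot1l KO and an interval from -3.19 to -0.18, but no p-value. By its documented default DESeq2 withholds the p-value of an entry in which 1 sample has an extreme count; that this happened here is not stated in the tables. The entry rests on few copies. L1MEg_dup958 (3057 in WT and 887 in Dot1l KO) and L1MEg_dup1366 (605 and 202) hold 96.9% of the mean counts of the 11 listed L1MEg copies, and neither has a p-value. The other 9 copies had means from 4.04 to 16.0 and fold changes from -1.64 to 0.29. Added up over all L1M copies, the implied level in Dot1l KO over that in WT was -0.41 on the log2 scale, and -0.09 without L1MEg. For all older L1 copies the same ratio was -0.23, beside -0.24 for the whole table, and -0.15 without L1MEg.

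Another 4 copies have no p-value. The most extreme was Lx2_dup12324, with an implied 77.5 in WT and 0.32 in Dot1l KO (-7.90 ± 1.71 in the authors' deposited table), followed by Lx_dup9258 with 239 and 37.5 (-2.67 ± 1.03 in the authors' deposited table). L1_Mus1_dup2429 had 138 and 29.7, and Lx2_dup17933 had 156 and 57.5. All 6 older L1 copies without a p-value had values below 0. Among all 26255 copies, 51 have no p-value, and the direction of those outside the older L1 copies was not examined. Whether the shared direction is particular to older L1 copies was not tested.

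Copies and subfamilies did not always share a sign. Among the 34 elements with at least 20 listed copies, the median of the copies was positive in 27, while the subfamily value was negative in 24; in 18 both held at once. Over all copies 50.9% were positive, and over all subfamilies 43.5%. Whether the signs of copies and subfamilies are related was not tested. The median over copies of the 34 elements ran from -0.14 (L1_Mus4) to 0.44 (Lx3_Mus). Lx8, with 283 copies, had 168 positive and 115 negative ones and a median of 0.15, while its subfamily stood at -0.01. L1_Mus1, with 146 copies, had 70 positive and 76 negative ones and a median of -0.03, while its subfamily stood at -0.41; its listed copies add up to 72.4% of the mean of the subfamily, a ratio across tables that were normalized separately.

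Fold changes of copies with close numbers were weakly related. Over 270 pairs of older L1 copies of the same element with consecutive numbers, Pearson's r between the log2 fold changes was 0.37 and Spearman's rho 0.35, and 61.9% of the pairs shared a sign. For neighbours in number 2 to 10 apart, r was 0.13 and rho 0.20 over 333 pairs, and 60.1% shared a sign, close to the share for consecutive numbers. For 11 to 100 apart r was 0.09 over 611 pairs, of which 53.4% shared a sign, and for more than 100 apart -0.00 over 1350 pairs, of which 49.6% did. All pairs come from the same 6 libraries, and these values are a description. The tables do not say that numbers follow position. The pair Lx8_dup42972 and Lx8_dup42973, given above with 1.67 and 1.52, is one such case, and L1_Mus1_dup21144 and L1_Mus1_dup21145, with 0.46 ± 0.85 and 0.20 ± 0.67 in the authors' deposited table, another. Of the 6 pairs in which both copies had a mean of at least 50, 4 shared a sign. None of the 10 copies past the threshold had a listed neighbour with the next or the previous number.

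**Figure D5:**
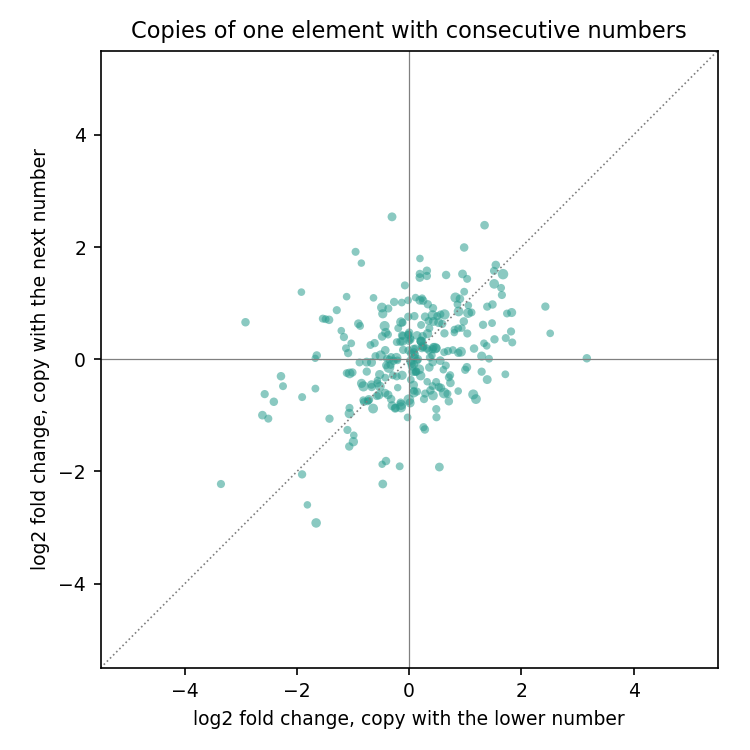
Each point is a pair of older L1 copies of 1 element with consecutive numbers (270 pairs), with the log2 fold change of the lower-numbered copy on the horizontal axis and of the other on the vertical axis; larger points have higher mean counts and the dotted line marks equal values. The cloud leans along the dotted line, with r of 0.37.

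Genes linked to the control of L1 were read as a list that was not limited to genes that restrain it. Of the 47 tested genes of the list, 6 rose and 2 fell. Over all genes, 6.58% passed (5.34% higher and 1.25% lower). The list was chosen with earlier results of these data known. All 5 germline genes of the list rose. Mael (chromosome 1, 166201201 to 166238747 in mm10), a piRNA pathway protein that limits L1 in germ cells, had an implied 159 in WT and 1264 in Dot1l KO. Mov10l1 (chromosome 15, 88982909 to 89055152), the helicase that feeds piRNA precursors, had 342 and 1795, and Piwil2 (chromosome 14, 70372477 to 70429383), a protein that binds piRNAs, 741 and 2430. Tdrd9 (chromosome 12, 111971559 to 112068854), a piRNA pathway helicase, went from 28.5 to 121, and Tex19.1 (chromosome 11, 121146143 to 121148319), which acts on L1 in germ and stem cells, from 1181 to 2714. The DESeq2 adjusted p-values of these 5 ran from 4.52e-10 to 0.0372 in the authors' deposited table.

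Mov10 (chromosome 3, 104794836 to 104818563), a helicase that restricts retrotransposition and a relative of Mov10l1, fell from an implied 9501 to 3810, with -1.32 ± 0.28 and a DESeq2 adjusted p = 0.000213 in the authors' deposited table. Of the other 9 tested genes that act on L1 RNA or on retrotransposition, such as Samhd1, Apobec3 and Zc3hav1, 0 passed, the nearest being Rnaseh2b at -0.89 ± 0.32 with a DESeq2 adjusted p = 0.0726 in the authors' deposited table. In the list for H3K9 methylation and HUSH, 0 of 15 passed, with fold changes from -0.57 to 0.23; Setdb1 had -0.13 ± 0.25 and Trim28 -0.08 ± 0.35 in the authors' deposited table. Of 8 genes for DNA methylation 1 rose, the de novo methyltransferase Dnmt3a (chromosome 12, 3806007 to 3914443), from 4347 to 7833 (0.85 ± 0.24 in the authors' deposited table). Of 9 further chromatin and RNA factors 1 fell, Chaf1b (chromosome 16, 93883901 to 93906115), a subunit of the histone chaperone CAF-1, from 4526 to 2372 (-0.93 ± 0.26 in the authors' deposited table).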

How the data were processed

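RNA of 3 Dot1l KO and 3 WT samples was compared. Per the submitters' processing notes, reads were aligned with HISAT2 2.1.0 to mm10, counted with featureCounts 2.0.0 and tested with DESeq2 (its version is not given in these sources). The handling of strand, of reads that map to several places, and any filter are not stated either, so near-identical copies may share reads. The mean is a signal that the authors averaged over libraries after dividing counts by size factors, per the file headers. The log2 fold changes and their SEs are the authors', per the file headers. The deposited score is a Wald statistic, and the deposited p-values come with a Benjamini-Hochberg adjustment; both were checked by recomputation.

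Members were found by name, and members and lists were chosen with earlier results of these data known. From the mean and fold change, each group's level was implied under equal sizes; a level under 0.25 was taken as no reads. Intervals are the fold change with its 95% normal limits. The planned edgeR fit needs values per sample and was not run, and neither were intervals for counting error. Named copies were the 5 largest rises and falls past the threshold with a mean of at least 50 (20 where fewer than 5 qualified) and the 2 smallest p-values per name group; named subfamilies were the most abundant and the smallest p-value per group. All others were picked with their values known. Gene coordinates are from GENCODE M21 (GRCm38, the assembly of mm10). Python 3.11.15, pandas 2.3.3 and scipy 1.17.1 were used, with adjustment and centring tested on simulated data. Alternatives were a stricter threshold, a fold limit, Bonferroni adjustment, centring, a minimum mean of 50, leaving out entries without reads in a group, and leaving out L1_Mm.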

Additional observations from a re-analysis of the deposited data

How the results depend on the processing

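Of the 10 older L1 copies past the threshold, 7 passed at an adjusted p under 0.01, all 10 had a log2 fold change of at least 1 in size, all 10 passed after centring on the table median, and 8 passed after centring within 20 bins of mean count. Over all copies the counts were 178, 290, 281 and 274 in the same order, beside 290 as reported. Under Bonferroni adjustment 1 passed (L1_Mus4_dup4514), beside 63 of all copies. Among copies with a mean of at least 50, adjusted anew, 5 of 96 tested members passed, beside 54 of 988 tested copies of the whole table. The 5 were all lower, 4 of them among the 10 and the other one Lx6_dup3829. These filters leave out or demand more by construction. Leaving out L1_Mm changed no call. The median of the copies was -0.45 at a mean of at least 50, where it is 0.10 over all of them, and 0.08 to 0.10 under the other alternatives. For older L1 subfamilies 0 passed under every alternative run, beside 5 to 7 of all subfamilies. The median of the older L1 subfamilies was 0.011 after centring on the table median and -0.06 to -0.03 otherwise. No paired analysis was possible because the tables used hold no values per sample, and for the same reason no replicate was left out and no other count test was run. Directions rest on the reading of the sign, and the errors of single copies let only large changes pass.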

Other observations

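Among the 30 older L1 subfamilies with a mean of at least 800 normalized counts, the SE did not follow the mean. It was below 0.3 in 20 of them and above 0.35 in 10, from 0.14 for Lx8b to 0.77 for L1MEg. Lx8 and L1_Mus1 had means of 6730 and 6067 and SEs of 0.16 and 0.42 in the authors' deposited table. The 10 with the larger SE were Lx2, L1_Mm, Lx3_Mus, L1_Mus4, L1_Mus1, Lx2B2, L1_Mus2, Lx, Lx3B and L1MEg. In these the copy with the highest mean held from 12.7% (Lx2) to 80.4% (L1MEg) of the mean counts of the listed copies, and in the other 20 from 3.77% (Lx8) to 19.5% (L1VL2) and slightly more in Lx4A, so the ranges overlap. The log2 fold change was negative in 9 of these 10 and in 15 of the other 20. These groups were formed after the values were seen and no test was made.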
